A study of Mus musculus with 4 samples.

Results

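Hemidesmosomes are the rivet-like junctions that fix basal keratinocytes to the basement membrane. Their core receptor is the α6β4 integrin, the product of Itga6 and Itgb4, which binds laminin-332 outside the cell and is joined to keratin filaments inside it. Col17a1 encodes collagen XVII, a transmembrane collagen of the same junction, and Lama3 encodes the α3 chain of laminin-332. Itga3 encodes the α3 chain of α3β1, another laminin receptor, linked to actin, and Itgb6 encodes the β6 chain of αvβ6, a receptor known for activating latent TGF-β. Outside epithelia, α6β4 is known on Schwann cells and on parts of the endothelium. These 6 genes were described here by the kind of cell that held their transcripts, by distance from the stroma and by tissue. They were chosen by name from the 328 genes of a Xenium panel, in which decoded RNA molecules are counted in place in sections and assigned to segmented cells.

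The data came from 4 slides of mouse tissue: unwounded male dorsal skin, unwounded female dorsal skin, unwounded buccal mucosa of both sexes, and male dorsal skin fixed at day 4 after full-thickness wounding. The skin was from Tet-On mice that carry TRE-Pitx1 together with rtTA under the Krt5 promoter, so that the agent is doxycycline in the chow and the cells that respond are those that use the Krt5 promoter. Controls were littermates on normal chow, labelled vehicle, and buccal mucosa was labelled Control and vehicle. The files held 4 slides and no section names, so sections were told apart by position: cells chained into 17 sections, and on each skin slide the leftmost section, or the 2 leftmost of the female slide, was assigned to Control and the rest to PITX1+. This gave 3 Control sections (1 and 2 female, 3 male), 4 PITX1+ sections (1 and 2 female, 3 and 4 male), 7 buccal sections, 1 Control wound and 2 PITX1+ wounds. The labels give neither age nor the number of mice. The study counts as many Control skins, PITX1+ mice and buccal mucosae as there are unwounded sections here, so each skin section was taken as a separate animal and each buccal section as a separate mucosa.

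The transgene itself was read first. Levels are given in CPM, the usual scaling of a gene's transcripts to the total of the cells counted. In keratinocyte-like cells Pitx1 stood at 51.6, 54.6 and 15.3 in Control sections 1 to 3. It stood at 1071 and 869 in PITX1+ sections 3 and 4, but at 44.1 and 79.0 in PITX1+ sections 1 and 2, so that on the female slide the transgene's level goes against the assignment by position. Other measures there run the way the assignment says. Activated keratinocyte-like cells made up 12.6% and 6.04% of the cells in PITX1+ sections 1 and 2 and 0.883% and 0.730% in Control sections 1 and 2. That kind took in cluster 22, whose leading genes held more suprabasal than activated markers, so its share of the cells is given only as a check of the assignment. The number of cells in each unwounded skin section also came closest to that of a section which the study lists under the assigned condition. The sections are called "assigned to PITX1+", and values within the male slide are given beside each result between them and Control that passed the test. In buccal sections Pitx1 lay between 738 and 1262 CPM, in the Control wound at 51.4, and in the PITX1+ wounds at 636 and 322.

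Of the cells in the sections, 426404 held at least 10 transcripts and were clustered without the 6 genes, 10 further adhesion genes and Pitx1. The filter of 10 transcripts kept 12684 of 18724 cells in Control section 3 and 28005 of 29222 in PITX1+ section 4. It kept 17335 of 20121 in Control section 1 and 57231 of 68416 in PITX1+ section 1. Clusters were named from marker genes, so each kind is written as "-like". The median cell held 26 to 125 transcripts across the sections. Clusters 1 and 14, with 52237 cells or 12.3% of the total, stayed unnamed. Cluster 1 had no clear markers, and cluster 14 had raised immune markers. Their median cells held 15 and 14 transcripts. Unnamed cells made up 23.1 to 28.7% of the clustered cells in Control sections. They made up 5.30 to 16.6% in sections assigned to PITX1+ and 2.54 to 20.4% in buccal ones. In Control sections they held means of 8.59% (Col17a1) to 24.4% (Itgb6) of each gene's transcripts. Their part in the differences between groups was not tested. Different clusters held the same kind in different groups: 68.2% of basal keratinocyte-like cells of Control sections lay in cluster 23, 69.4% of those assigned to PITX1+ in cluster 5, and 99.7% of the buccal ones in cluster 24. Probes differ between genes, so levels of different genes were not ranked, and the single ratio of genes given further on is compared only between groups.

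The 6 genes fell into different patterns across kinds of cell. The medians that follow are over the unwounded sections with at least 20 cells of a kind, and they are levels in CPM. In every gene, each kind overlapped its neighbour in the order, and tissues differed, so the orders are descriptions of the pooled sections.

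Itga6 was highest in basal keratinocyte-like cells, with a median of 8157 CPM (range 4921 to 11282, n = 13 sections). Neural-like cells followed at 6681 CPM (4291 to 11597, n = 14), then cycling keratinocyte-like cells at 5563 CPM and vascular-like cells at 5133 CPM (1371 to 6570, n = 14). In suprabasal keratinocyte-like cells the level depended on the tissue, with medians of 2803 CPM in Control sections, 1690 CPM in those assigned to PITX1+ and 290 CPM in buccal sections, where this kind was the lowest.

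Itgb4, the partner chain of Itga6, reached 11950 CPM in basal keratinocyte-like cells (5503 to 22414, n = 13). Neural-like cells stood above that median, at 22370 CPM (9522 to 33126, n = 14). Hair follicle-like cells held 8382 CPM and vascular-like cells 4453 CPM. Suprabasal keratinocyte-like cells held a median of 4316 CPM in Control, 1387 CPM in PITX1+ and 451 CPM in buccal sections, against 3470, 4008 and 6543 CPM in vascular-like cells. The highest median was that of salivary-like cells, 25297 CPM, which were counted in 3 buccal sections.

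By pooled median, Col17a1 was highest in basal, cycling and hair follicle-like cells, but not high in all keratinocytes. In buccal suprabasal keratinocyte-like cells its level, given further on, overlapped that of buccal fibroblast-like cells. Its median was 27870 CPM in basal, 26758 CPM in cycling and 23701 CPM in hair follicle-like cells. In neural-like cells it was 309 CPM, in vascular-like cells 218 CPM and in mesenchymal-like cells 118 CPM. The hair follicle-like median describes neither skin group. By the values given further on, all Control sections lay far above it and all sections assigned to PITX1+ far below it. In each section assigned to PITX1+, hair follicle-like cells held less Col17a1 than basal ones.

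Lama3 ran from 5966 CPM in basal keratinocyte-like cells and 5561 CPM in salivary-like cells down to 74.8 CPM in neural-like cells. Itga3 was highest in cycling keratinocyte-like cells, at 2632 CPM, and in basal ones, at 2393 CPM, and stood at 121 CPM in immune-like cells.

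The highest median of Itgb6 was 7120 CPM, in mesenchymal-like cells (2112 to 9591, n = 14), which are the cells named from muscle and mural markers such as Des, Acta2 and Abcc9. This kind had the highest median in each of the 3 groups. In suprabasal keratinocyte-like cells the median was 267 CPM. In buccal sections, mesenchymal-like cells held on average 59.3% of all Itgb6 transcripts of the clustered cells, unnamed ones included (range 23.7 to 73.0%, n = 7), while making up 19.6% of the cells. In Control sections that share was 30.7% (18.2 to 55.6%, n = 3) from 5.95% of the cells. In sections assigned to PITX1+ it was 21.2% (1.61 to 51.7%, n = 4) from 3.40% of the cells. There hair follicle-like cells held 21.8% (10.5 to 31.1%) and activated keratinocyte-like cells 21.0% (1.20 to 45.7%) of the Itgb6 transcripts. Cluster 22, which holds more suprabasal than activated markers, made up 43.8% of those activated cells.

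**Figure D1:**
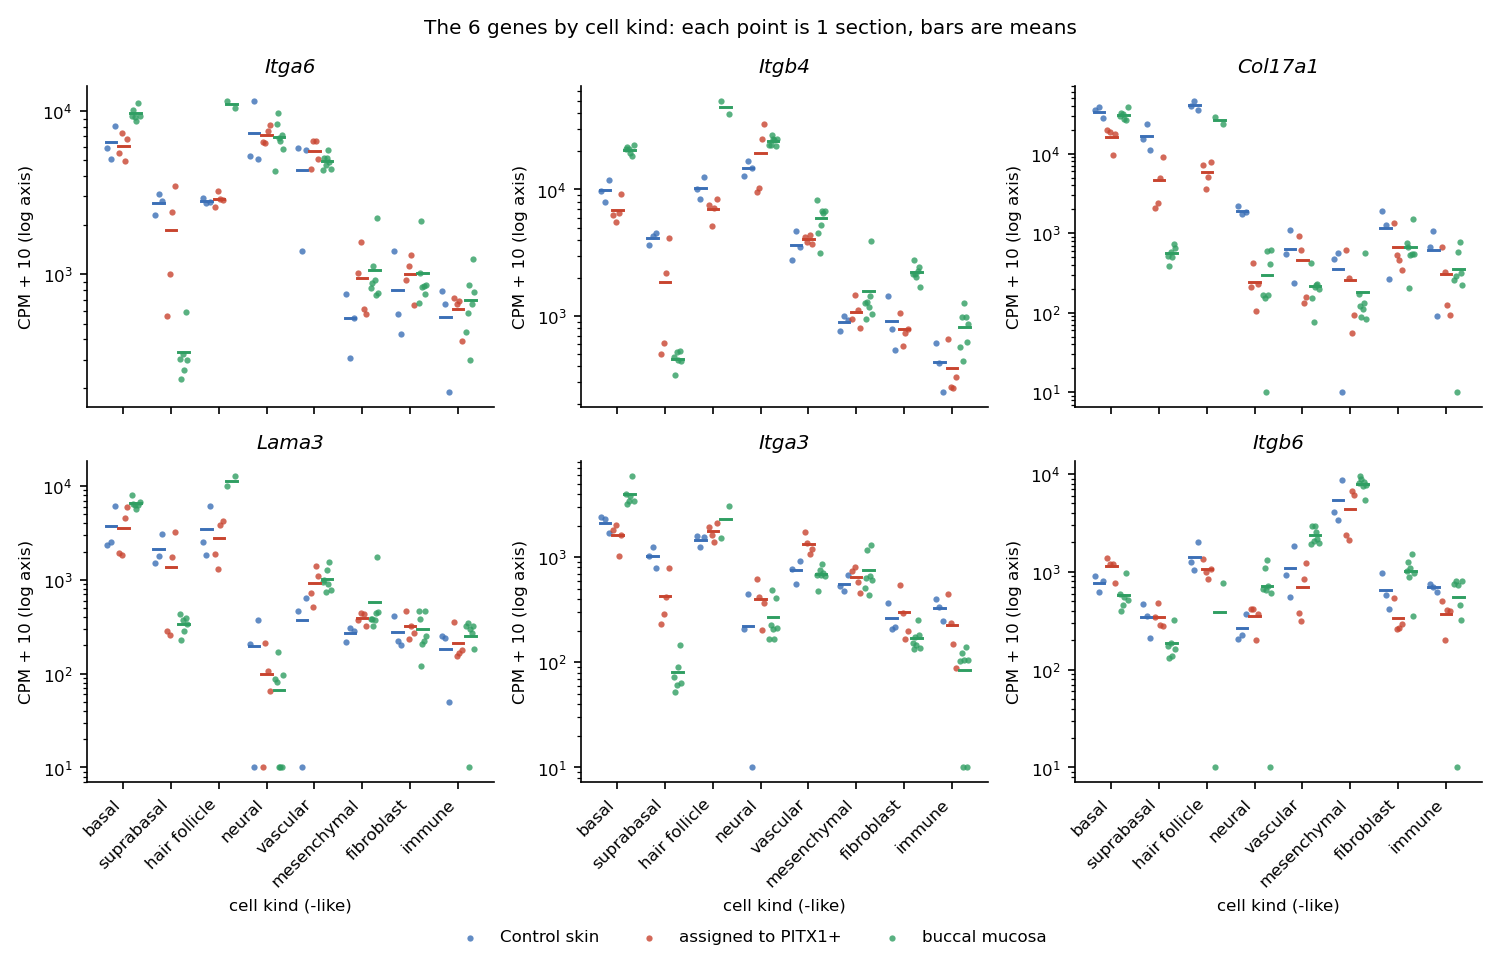
Level of each of the 6 genes in 8 kinds of cell, as CPM + 10 on a log axis, with 1 point per unwounded section that had at least 20 cells of the kind, bars for group means, and colours for Control skin, sections assigned to PITX1+ and buccal mucosa. Itgb4 and Itga6 are high in basal keratinocyte-like, neural-like and vascular-like cells, Col17a1 and Lama3 in basal keratinocyte-like and hair follicle-like cells, and Itgb6 in mesenchymal-like cells (median 7120 CPM).

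Mesenchymal-like cells lay in 2 clusters that differed in Itgb6. Cluster 4, led by Des, Abcc9, Igfbp5 and Ncam1, held 9359 CPM in Control sections, 7516 CPM in sections assigned to PITX1+ and 9515 CPM in buccal sections, each pooled over the sections of the group. Cluster 34, led by the smooth muscle genes Myh11 and Acta2, held 99 to 355 CPM. Cluster 35, a vascular-like cluster in which Des and Abcc9 were also high, held 3096 to 3674 CPM. Mesenchymal-like cells within 50 µm of a keratinocyte-like cell held 3458 CPM of Itgb6, against 7201 CPM at 100 µm or more. These means were not split by cluster or paired by section. The part of the mix of clusters in them was not tested.

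The neural-like cells were 3622 cells of 1 cluster, 0.849% of all, led by Kcna1, Ncmap, Drp2 and Scn7a, genes of myelinating Schwann cells and nerve. They held both chains of α6β4. Across the 14 unwounded sections Itgb4 averaged 20796 CPM and Itga6 7097 CPM. The share of their transcripts from basal keratinocyte markers was 4318 to 12473 CPM. Neural-like cells were then taken alone by distance, which was measured to keratinocyte-like cells only. Salivary-like, sebaceous-like and unnamed cells did not count towards it, so other epithelium may lie closer. At least 100 µm away lay 1413 cells in 12 sections. There Itgb4 stood at 21466 CPM (12849 to 34535) and Itga6 at 7658 CPM (3896 to 11171). Col17a1 stood at 66.8 CPM (0 to 443), Lama3 at 47.5 CPM, Itga3 at 141 CPM and Itgb6 at 614 CPM. Within 50 µm of keratinocyte-like cells, neural-like cells held 17943 CPM of Itgb4, 2002 CPM of Col17a1 and 180 CPM of Lama3. In these means the distant cells stood no lower than the near ones in Itgb4 and far lower in Col17a1. The means were not paired by section, and the difference was not tested.

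For comparison, immune-like cells at the same distance, a kind not known for α6β4, held 566 CPM of Itgb4 and 744 CPM of Itga6. Vascular-like cells at that distance held 5042 CPM of Itga6, 3499 CPM of Itgb4 and 137 CPM of Col17a1, and those within 50 µm of keratinocyte-like cells held 7733 CPM of Itgb4.

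Counts in single cells show the same split in a square of 600 µm in buccal section 1. In that square 99 neural-like cells held 239 Itgb4 and 40 Itga6 transcripts, 1 of Col17a1, 1 of Lama3 and 0 of Itga3. In the same square 138 basal keratinocyte-like cells held 495 Itgb4, 217 Itga6, 761 Col17a1, 175 Lama3 and 79 Itga3 transcripts. Its 256 vascular-like cells held 222 Itgb4, 136 Itga6 and 12 Col17a1 transcripts. The 256 mesenchymal-like cells held 241 Itgb6 transcripts, against 16 in the basal cells.

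**Figure D2:**
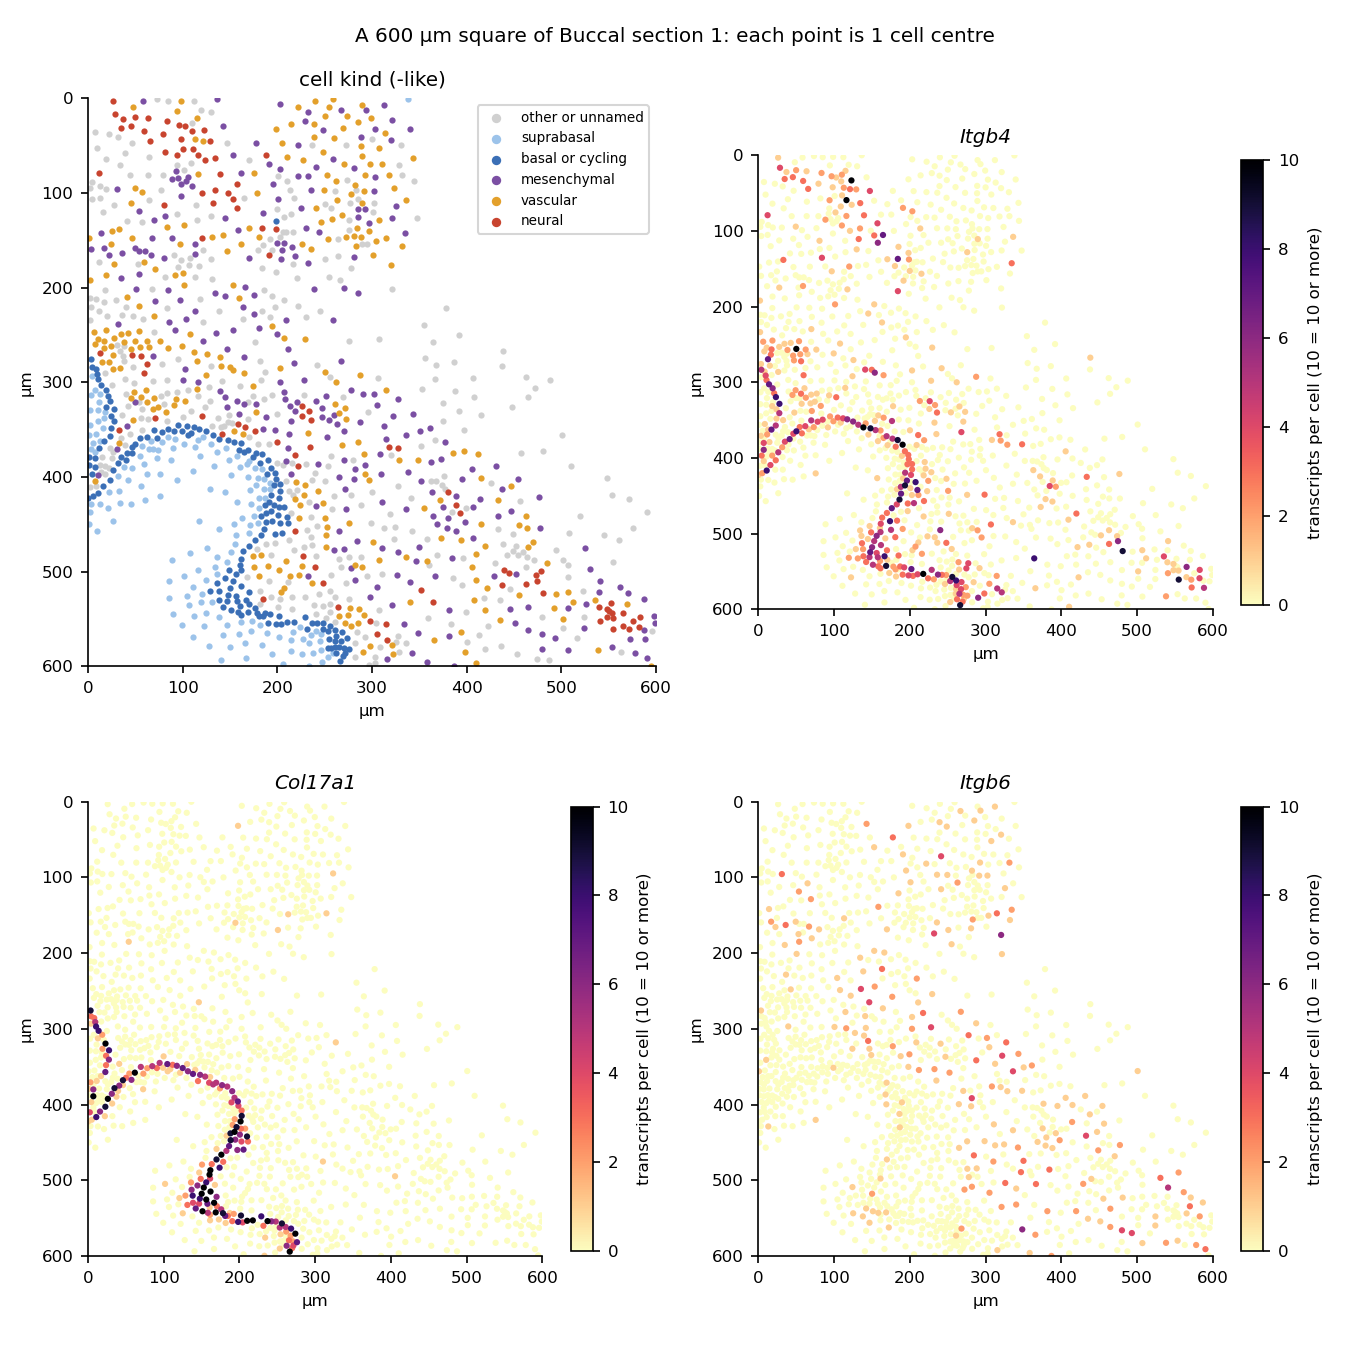
A square of 600 µm in buccal section 1 with both axes in µm and 1 point per cell centre, coloured by kind of cell in the first panel and by transcripts per cell of Itgb4, Col17a1 and Itgb6 in the others, where 10 stands for 10 or more. Itgb4 marks the basal layer, the groups of neural-like cells and the vascular-like cells (495, 239 and 222 transcripts). Col17a1 marks the basal layer (761 against 1 in neural-like and 12 in vascular-like cells), and Itgb6 the mesenchymal-like cells (241).

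Distance from the stroma was used to ask how the genes run through the epithelium, since it uses no gene of the list. In each section, keratinocyte-like cells whose centre lay under 15 µm from the nearest fibroblast-like or vascular-like cell were compared with those at least 30 µm away, with an exact two-sided sign-flip permutation test over 13 unwounded sections. In CPM, all 6 genes were higher near the stroma. Of all 328 genes, 65.9% passed the same test after adjustment and 50.9% were higher near, so the direction is shared with much of the panel. Summed fibroblast markers were also higher in the near keratinocyte-like cells in 13 of 13 sections, by 0.92 to 3.66 on the log2 scale, and their part in the result was not tested. The test was not run per cell, and counted per cell the order turned in some sections. In Control section 1, 1396 near cells held 540 Itgb4 transcripts and 1814 far cells held 824, which is more per far cell. Itga6 was higher per far cell in each Control section.

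In CPM, Itgb4 was higher near the stroma in 13 of 13 sections, by a mean of 3.26 on the log2 scale. The same held for Itga3 (3.24), Col17a1 (3.09), Lama3 (2.73) and Itgb6 (1.41), each with p = 0.000244, the smallest the permutation test can give, and an adjusted p of 0.000728 over all genes. Itga6 was higher near in 11 of 13 sections, by 2.57 (exact p = 0.00146, adjusted p = 0.00302 over all genes). These differences are on the scale of log2(CPM + 10).

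The steepness differed between tissues in the values, although the difference between tissues was not tested. In the 6 buccal sections with epithelium, Itgb4 averaged 21044 CPM near the stroma and 673 CPM far from it, and Col17a1 30554 and 968 CPM. In profile, buccal Itgb4 went from 23930 CPM under 10 µm to 93.3 CPM at 60 µm and beyond, and Col17a1 from 34957 to 116 CPM. In the 3 Control sections Col17a1 averaged 37595 CPM near and 19925 CPM far, a difference of 0.94. Per cell, Col17a1 was higher far from the stroma in Control sections 1 and 2 and higher near it in section 3. In Control section 1, 1396 near cells held 1942 Col17a1 transcripts and 1814 far cells held 3081. In CPM, Itga6 ran level in Control sections, from 3675 CPM under 10 µm to 3167 CPM at 60 µm and beyond. In the 4 sections assigned to PITX1+ the mean differences lay between those of the other tissues, at 2.10 for Itgb4, 2.33 for Itga3 and 1.48 for Col17a1, with Itga6 at 1.09 and higher near in 3 of 4. On the male slide alone this did not hold for Col17a1, at 1.45 and 0.31 in PITX1+ sections 3 and 4 and 1.42 in Control section 3, for Lama3, at 1.00 and 0.34 against 1.19, or for Itgb6 in section 3, at 0.58 and 1.67 against 1.62. With 3 and 4 sections, the exact permutation test cannot go below p = 0.25 and p = 0.125, and with the 6 buccal sections it reached p = 0.03125, the smallest possible there, for each gene.

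The kinds of cell at each distance differed too. Buccal cells near the stroma were 79.2% basal keratinocyte-like and those far from it 90.0% suprabasal. In Control skin the near cells were 49.6% hair follicle-like and 39.6% basal, and the far cells 59.1% suprabasal. In sections assigned to PITX1+ 54.1% of near cells were hair follicle-like and 39.6% of far cells suprabasal. The part of this mix in the gradients was not tested.

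**Figure D3:**
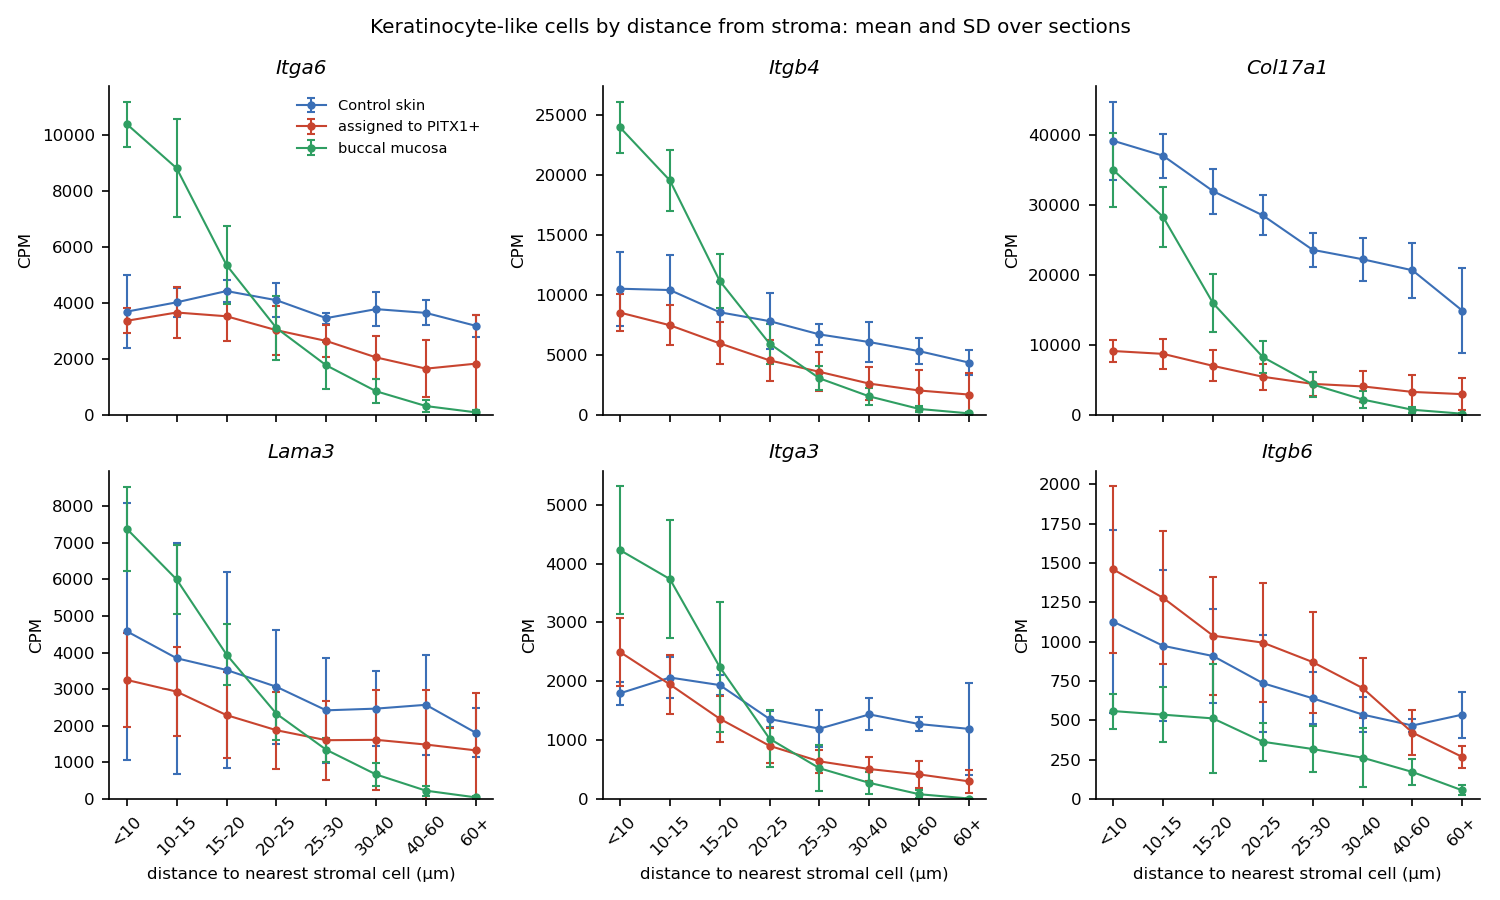
Level of each gene in keratinocyte-like cells, in CPM on a linear axis, by distance in µm from the nearest fibroblast-like or vascular-like cell, with lines for the means and bars for the SD over Control, PITX1+ and buccal sections. In buccal mucosa Itgb4 runs from 23930 to 93.3 CPM, and in Control skin Itga6 runs from 3675 to 3167 CPM.

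Fibroblast-like cells were split by their distance from keratinocyte-like cells in the same way. Under 20 µm from a keratinocyte-like cell they held more Col17a1 than at 100 µm or more, in 13 of 13 sections (exact p = 0.000244, adjusted p = 0.00148). The mean difference was 4.91 on the log2 scale, and 5.83 or 3.45 with a pseudocount of 1 or 100 CPM in place of 10. Its size rests on the pseudocount, since the far cells held 0 Col17a1 transcripts in 3 sections and 1 in 3 others. Lama3 was higher near by 2.09 in 13 of 13 sections, Itgb4 by 1.05 in 11 (exact p = 0.000977, adjusted p = 0.00364), Itga3 by 0.83 in 10 (exact p = 0.00488, adjusted p = 0.0124) and Itga6 by 0.79 in 12 (exact p = 0.00171, adjusted p = 0.00561). Itgb6 was lower near in 12 of 13 sections, by a mean of -2.01 (exact p = 0.000732, adjusted p = 0.00308). Of all 328 genes 54% passed, 35.1% higher and 18.9% lower near. Summed basal keratinocyte markers were also higher in the near fibroblast-like cells, and their part in the result was not tested.

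Between sections assigned to PITX1+ and Control sections, the member that differed most in keratinocyte-like cells of all kinds was Col17a1. Control sections 1 to 3 held 24802, 30104 and 21107 CPM. PITX1+ sections 1 to 4 held 6021, 5327, 4261 and 7628 CPM. The groups did not overlap, which was true of 26.8% of all genes. In edgeR's quasi-likelihood test with slide as a covariate, Col17a1 fell by 2.07 on the log2 scale (SE 0.26, adjusted p = 0.00366). The level fell on each slide, from 27453 to 5674 CPM in female and from 21107 to 5944 CPM in male sections, so the male sections, whose Pitx1 level matches their assignment, show it as well.

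Per cell in place of per transcript, the difference of Col17a1 was -1.12 and missed the threshold (adjusted p = 0.0615). By that measure the median of all genes was 0.81. The median cell held 26 to 32 transcripts in Control sections and 37 to 87 in sections assigned to PITX1+. The mix of kinds differed as well: hair follicle-like cells made up a mean of 7.12% of all clustered cells in Control and 19.0% in the other sections, and basal keratinocyte-like cells 12.1% and 6.75%. The part of this mix in the result was not tested.

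The α6β4 and laminin chains moved less. In keratinocyte-like cells of all kinds, 3 of the 6 genes passed the test, all lower, where 32% of all genes passed and 17.7% were lower. Itgb4 stood at 6659, 5822 and 8279 CPM in Control sections 1 to 3 and at 3192, 3177, 6221 and 7485 CPM in PITX1+ sections 1 to 4, with overlap between the groups, and fell by 0.66 (SE 0.17, adjusted p = 0.0277 in edgeR). Lama3 stood at 1866, 1991 and 4465 CPM in Control and at 1026, 978, 2982 and 3660 CPM in the others, and fell by 0.70 (SE 0.18, adjusted p = 0.0263 in edgeR). Lama3 was higher on the male than on the female slide in both groups, and slide and sex cannot be told apart.

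Within the male slide Itgb4 went from 8279 to 6853 CPM and Lama3 from 4465 to 3321 CPM. Both calls were lost when library size replaced TMM scaling, without the slide covariate, with transcripts of any quality, and on leaving out any 1 Control section or PITX1+ section 2 or 3. With cells as the offset the values were 0.25 and 0.22, both below the median of all genes, 0.81, as they were in the fit per transcript, where that median was -0.07. Itga6 (-0.48, adjusted p = 0.112), Itga3 (-0.29, adjusted p = 0.36) and Itgb6 (0.58, adjusted p = 0.263) did not pass in edgeR.

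In hair follicle-like cells Col17a1 was lower as well. Control sections 1 to 3 held 39340, 46410 and 35656 CPM there. PITX1+ sections 1 to 4 held 7177, 3622, 5132 and 7811 CPM, and the groups did not overlap, which held for 29.3% of genes. Col17a1 fell by 2.88 (SE 0.30, adjusted p = 5.25e-06 in edgeR), and by 1.54 with cells as the offset, which also passed (adjusted p = 0.00178). Its mean went from 42875 to 5400 CPM on the female and from 35656 to 6471 CPM on the male slide. Itgb4 fell by 0.70 (SE 0.24, adjusted p = 0.036 in edgeR), from a mean of 10320 to 7020 CPM, and within the male slide from 12472 to 7733 CPM. That Itgb4 call was lost on leaving out any 1 Control section or PITX1+ section 2, 3 or 4. With cells as the offset its value was 0.64, below the median of all genes there, 1.06. These were 2 of 6 genes, where 38.1% of all genes passed and 14.9% were lower. Lama3 (-0.60, adjusted p = 0.0658), Itgb6 (-0.53, adjusted p = 0.246), Itga3 (0.20) and Itga6 (-0.03, adjusted p = 0.937) did not pass.

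The hair follicle-like cells were not the same clusters in the groups. In Control sections 88.9% of them lay in cluster 38. In sections assigned to PITX1+ 5.57% did, with 35.5% in cluster 6 and 26.4% in cluster 8. Within cluster 38 alone Col17a1 stood at 40055, 46734 and 35900 CPM in Control sections 1 to 3 and at 18563, 17488, 18919 and 21992 CPM in PITX1+ sections 1 to 4, without overlap. The difference within this cluster was -1.02 (SE 0.26, adjusted p = 0.0211 in edgeR). Pooled over sections, Col17a1 went from 38516 to 5576 CPM in cluster 6 and from 34157 to 7680 CPM in cluster 8, on 227 and 95 Control cells.

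**Figure D4:**
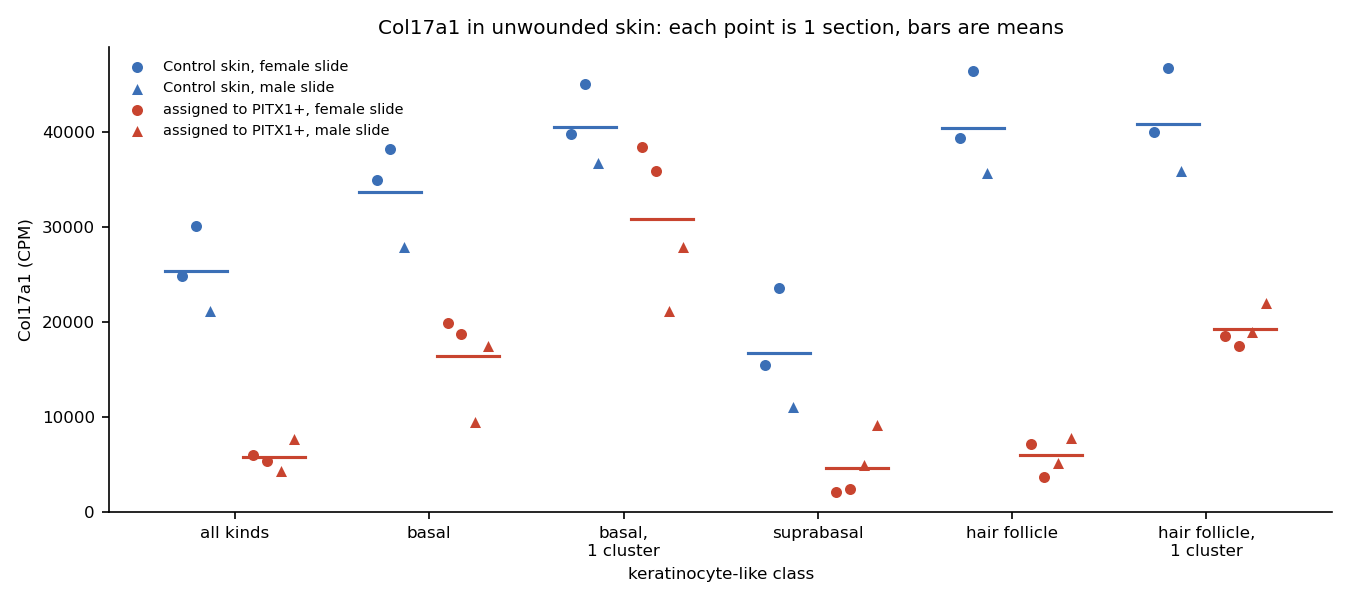
Col17a1 level of unwounded skin in CPM on a linear axis, by class of keratinocyte-like cell and within 1 basal cluster (23) and 1 hair follicle cluster (38), with 1 point per section, bars for group means and shapes for the slide. In hair follicle-like cells the Control sections (35656 to 46410 CPM) lie above all sections assigned to PITX1+ (3622 to 7811 CPM). Within basal cluster 23 the groups overlap between slides, while on each slide the sections assigned to PITX1+ lie lower.

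Basal keratinocyte-like cells, which carry hemidesmosomes, gave no call. None of the 6 genes passed there after adjustment, where 11.4% of 315 genes tested did. At an unadjusted p under 0.05 there were 2, Col17a1 and Itgb6, where 27.9% of genes had one, and DESeq2 called 1, and 19.8% of its genes. Col17a1 stood at 34987, 38167 and 27870 CPM in Control sections 1 to 3 and at 19895, 18736, 9492 and 17447 CPM in PITX1+ sections 1 to 4. The groups did not overlap, which held for 14.9% of genes, and the difference was -0.81 (SE 0.28, adjusted p = 0.0981 in edgeR). With 30 and 60 clusters it was -1.56 and -1.58 and passed (adjusted p = 0.00498 and 0.022).

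The value depended on which basal clusters entered. Within cluster 23 alone Control sections 1 to 3 held 39782, 45107 and 36769 CPM. PITX1+ sections 1 to 4 held 38402, 35871, 21150 and 27905 CPM. On each slide these lay below the Control values, so the groups overlap only between slides. The difference fitted with TMM scaling was 0.03 (SE 0.35, adjusted p = 0.976 in edgeR). It does not follow the fall in CPM, and the part of the scaling was not tested. That cluster made up 50.7 to 74.9% of basal cells in Control sections and 25.6 to 41.1% in the others. Cluster 5 held 17247 CPM in Control and 8632 CPM in PITX1+ sections, pooled. Itgb6 was 905, 608 and 787 CPM in Control and 1378, 1180, 1204 and 763 CPM in sections assigned to PITX1+ (log2 difference 0.80, adjusted p = 0.112 in edgeR). Itgb4 (-0.42), Itga6 (0.11), Lama3 (-0.15) and Itga3 (-0.13) did not pass either.

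In suprabasal keratinocyte-like cells 0 of 6 genes passed, where 0.625% of 320 genes did. Col17a1 averaged 16701 CPM in Control and 4631 CPM in sections assigned to PITX1+ (-1.33, adjusted p = 0.168 in edgeR). Its mean went from 19515 to 2253 CPM on the female and from 11072 to 7009 CPM on the male slide. Cluster 19 held 99.0 to 99.9% of suprabasal cells in Control sections and 93.1% and 95.7% in PITX1+ sections 3 and 4, but 5.88% and 0.486% in PITX1+ sections 1 and 2. At an unadjusted p under 0.05 there were 4 (Col17a1, Itgb4, Itgb6 and Lama3), where 22.5% of genes had one, and DESeq2 called 3, and 21.0% of its genes.

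In vascular-like cells 0 of 6 passed (2.01% of 249 genes did), and in fibroblast-like cells 0 of 6 (10.4% of 328 genes). Itgb6 had an unadjusted p under 0.05 in each, as did 18.9% of all genes in vascular-like and 25.6% in fibroblast-like cells. DESeq2 called 1 member in each, where it called 9.28% and 14.9% of all genes. In neural-like cells 0% of 111 genes passed, and of the members 2 were frequent enough to be tested, Itgb4 (-0.05) and Itga6 (-0.10), with 0 at an unadjusted p under 0.05 in edgeR (5.41% of genes) and 0 called by DESeq2.

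The ratio of the β4 to the α6 chain, in CPM over CPM within a section, was 1.55 ± 0.09 in basal cells of Control sections (SD, n = 3), 1.14 ± 0.28 in those assigned to PITX1+ (n = 4) and 2.14 ± 0.26 in buccal ones (n = 6). No test was run on it.

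In the basal layer of buccal mucosa both chains of α6β4 were higher than in Control skin. Tissue and slide cannot be told apart here, since all buccal sections lay on one slide. Itgb4 in basal keratinocyte-like cells stood at 9773, 7966 and 11950 CPM in Control sections 1 to 3. In the 6 buccal sections the lowest was 18390, the median 20921 and the highest 22414 CPM, above all Control sections. Groups without overlap were found for 56.3% of genes. Itgb4 was higher by 1.53 (SE 0.22, adjusted p = 0.000133 in edgeR). Counted per 100 basal cells, there were 34.1 to 49.2 Itgb4 transcripts in Control and 213 to 338 in buccal sections. Basal cells also held more transcripts of all genes in buccal sections, 104 to 161 per cell against 34.8 to 50.3 in Control.

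Itga3 rose with it by 1.36 (adjusted p = 0.000148), from 1682 to 2393 CPM in Control to 3173 to 5942 CPM in buccal sections. Itga6 rose by 1.05 (adjusted p = 0.00126), from a mean of 6416 to 9690 CPM. For Itgb4 and Itga6 the rise in CPM was smaller than the one fitted with TMM scaling. Within basal cluster 23 alone, Control sections 1 to 3 held 6337, 5820 and 9392 CPM of Itga6, and 10944, 9191 and 14978 CPM of Itgb4. The part of the mix of clusters in these differences was not tested. Lama3 rose by 1.27 (adjusted p = 0.00769), from 2370, 2552 and 6189 CPM in Control to between 5687 and 7919 CPM, so that Control section 3 lay within the buccal range, and its call was lost without Control section 2 (0.98, adjusted p = 0.0524). Col17a1 (0.38, adjusted p = 0.118) and Itgb6 (0.03) did not pass in edgeR. The mean CPM of both was lower in buccal than in Control sections, so the sign of these fitted values rests on TMM scaling. The members that passed, 4 of 6, compare with 68.2% of 277 genes that passed, 32.5% higher.

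In suprabasal keratinocyte-like cells 5 of the 6 members were lower in buccal tissue. The clusters were not the same there: 99.6% of these cells in Control sections lay in cluster 19, and 58.2% of the buccal ones in cluster 31 and 41.7% in cluster 40. Col17a1 stood at 15474, 23557 and 11072 CPM in Control and between 374 and 729 CPM in buccal sections, with a median of 540 CPM, and fell by 2.94 (adjusted p = 4.62e-07 in edgeR). Itga3 fell by 1.95 (adjusted p = 0.000168), Itgb4 by 1.30 (adjusted p = 0.000176, from a mean of 4146 to 448 CPM), Itga6 by 1.20 (adjusted p = 0.00138) and Lama3 by 0.81 (adjusted p = 0.0381). These differences are fitted with TMM scaling, and for Col17a1 and Itgb4 the fall in CPM was larger than the fitted one. Without Control section 3 the Lama3 value was -0.17 and did not pass, and its call was also lost without buccal section 5 or 6. Itgb6 was higher by 0.99 in the fit (adjusted p = 0.0127), although its CPM fell from a mean of 333 to 176, and with library size in place of TMM it was -0.97. The Itgb6 call was lost without buccal section 1, 2, 4 or 7. All 6 genes passed, where 74.1% of 313 genes did. Of those 313 genes 40.9% were lower and 33.2% higher.

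Over keratinocyte-like cells of all kinds 3 genes passed, where 68.8% of 320 genes did (30.9% higher, 37.8% lower), and their direction rests on the scaling. Itgb4 was higher by 0.76 (adjusted p = 0.0216) and Itga6 by 0.58 (adjusted p = 0.048) with TMM, but lower by -0.47 and -0.66 with library size, which moved the median of all genes to -1.61. Col17a1 was lower by -0.52 (adjusted p = 0.0403) in edgeR, from a mean of 25338 to 7182 CPM, and was 0.34 with cells as the offset, where the median of all genes was 0.55. The Itgb4 and Itga6 calls were lost without Control section 1 or 2, the Itga6 call also without buccal section 1, 2, 4 or 7, and the Col17a1 call without any 1 Control section or buccal section 1, 2, 4, 5 or 6.

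Outside the epithelium, Itgb4 was the member that passed most often. In fibroblast-like cells it stood at 1420, 775 and 532 CPM in Control sections 1 to 3 and between 1680 and 2751 CPM in the 7 buccal sections, with a median of 2151 CPM. It was higher by 1.15 (SE 0.28, adjusted p = 0.0111 in edgeR), 1 of 6 genes where 24.8% of 298 passed and 8.72% were higher. The clusters differed: cluster 28 held 76.0% of buccal and 1.18% of Control fibroblast-like cells, and cluster 2 held 2.22% and 47.0%. In vascular-like cells Itgb4 stood at 2756, 4661 and 3470 CPM in Control and between 3120 and 8310 CPM in buccal sections (0.98, adjusted p = 0.0492 in edgeR; 22.8% of 237 genes passed, 12.7% higher). That call was lost when any of the buccal sections except section 3, or Control section 1 or 2, was left out. Of vascular-like cells, 55.3% of the buccal ones lay in cluster 35 and 58.8% of the Control ones in cluster 11. Cluster 11, led by Vwf, held 16766 CPM in pooled buccal and 4277 CPM in pooled Control sections, and the cluster with lymphatic markers, cluster 42, held 5495 to 7607 CPM in all groups.

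In neural-like cells of buccal sections Itgb4 lay between 22231 and 26867 CPM, with a median of 24708 CPM, against 12808, 16630 and 14844 CPM in Control sections. The groups did not overlap, which held for 21.9% of genes, and the difference was 0.50 (adjusted p = 0.0535 in edgeR), which missed the threshold. Col17a1 was lower there by -2.78 (adjusted p = 0.00515), from a mean of 1909 to 292 CPM, and -1.61 with cells as the offset (adjusted p = 0.0539), 1 of 3 members tested, where 31.1% of 151 genes passed and 19.9% were lower. The paper describes oral keratinocytes as lacking hair follicle types, so the name hair follicle-like is doubtful in buccal sections. Of buccal cells so named 79.5% lay in cluster 8 and 10.0% in cluster 38, against 3.26% and 88.9% in Control sections. In hair follicle-like cells 0 of 6 passed, with 2 buccal sections in the fit and 12.6% of 253 genes passing. At an unadjusted p under 0.05 there were 3 (Col17a1, Itga6 and Itgb4), where 28.1% of genes had one, and DESeq2 called 2, and 15.9% of its genes.

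Among neural-like cells the values of Itgb4 ran in opposite directions on the slides. On the female slide Itgb4 went from 14719 CPM in Control to 9883 CPM in sections assigned to PITX1+, and on the male slide from 14844 to 29041 CPM. The interaction of slide and group was 1.56 on the log2 scale and did not pass (adjusted p = 0.0649 in edgeR). PITX1+ sections 3 and 4, with Itgb4 at 24957 and 33126 CPM, were also those with high Pitx1. A link between them was not tested, and Pitx1 level, slide and sex cannot be told apart among these sections.

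The wounds had 1 Control section, so there is no test, and the intervals that follow are exact Poisson intervals at 95% that cover counting error only. The paper left the eschar out of its Xenium analysis of wounds, and no eschar was removed here. Activated keratinocyte-like cells were read by cluster. Cluster 7, led by Cxcl1, Areg and Krt16, had 123 cells in the Control wound and 2475 and 2622 cells in PITX1+ wounds 1 and 2. Unwounded sections assigned to PITX1+ also held 7173 cells of cluster 7 and 1849 of cluster 29. In unwounded Control sections all activated cells lay in cluster 22. The paper describes activated keratinocytes throughout the epithelium of PITX1+ wounds and fewer far from the Control wound edge. The part of a cell's place in the differences below was not tested.

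Lama3, whose product is laid down by migrating keratinocytes, was higher in the Control wound in clusters 7 and 29. In cluster 7 it was at 20771 CPM in the Control wound (18790 to 22904) and at 4980 CPM (4766 to 5201) and 6962 CPM (6700 to 7231) in the PITX1+ wounds. In cluster 29, led by Sprr2d, Hbegf and S100a8, it was at 10364 CPM in the Control wound (9048 to 11817, 135 cells) and at 4172 and 6063 CPM in the others. In cluster 22, led by Krt79, Plet1 and Flt1, the Control wound held 0 Lama3 transcripts in 74 cells, which allows up to 811 CPM, and the PITX1+ wounds held 565 and 285 CPM, so no order can be given there. Over all keratinocyte-like cells near the stroma Lama3 stood at 5271 CPM in the Control wound and at 5977 and 8883 CPM in the PITX1+ wounds. In basal keratinocyte-like cells the 3 wounds held 6984, 6734 and 6029 CPM of Lama3, with overlapping intervals.

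Col17a1, Itgb4, Itga6 and Itga3 were higher in cluster 7 of the Control wound as well. Col17a1 stood at 17051 CPM against 5259 and 7259 CPM, Itgb4 at 14261 against 6860 and 8797 CPM, Itga6 at 7595 against 3179 and 3619 CPM, and Itga3 at 4702 against 1128 and 1551 CPM. Elsewhere the order was not always the same. In cluster 29 the Itgb4 interval of the Control wound, 3322 to 5090 CPM, overlapped those of both PITX1+ wounds. Over keratinocyte-like cells near the stroma Itgb4 stood at 8935 CPM in the Control wound and at 10001 and 10671 CPM in the others, and Itga6 at 3881 against 3803 and 4248 CPM. Itgb6, a gene known to be induced in wound keratinocytes, stood in cluster 7 at 2428 CPM in the Control wound (1784 to 3229, on 47 transcripts). The PITX1+ wounds held 1490 CPM (1374 to 1614) and 1927 CPM (1790 to 2071) there, and the Control interval overlapped that of PITX1+ wound 2. Over keratinocyte-like cells near the stroma Itgb6 was lower in the Control wound, at 1298 CPM against 1479 and 1891 CPM. In cluster 29 it stood at 1859 CPM against 1645 and 2013 CPM. Basal Col17a1 followed the order seen in unwounded skin, with 29164 CPM in the Control wound and 17483 and 12814 CPM in the PITX1+ wounds. Cluster 23 made up 56.8% of those basal cells in the Control wound and 22.5% and 14.3% in the PITX1+ wounds, and within it Col17a1 stood at 37426, 31572 and 26107 CPM.

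Hair follicle-like cells of wounds did not follow it: Col17a1 stood at 9331 CPM in the Control wound and at 8974 and 20076 CPM in the PITX1+ wounds, where the clusters again differed. Neural-like cells in the wounds held Itgb4 at 25852, 18177 and 24757 CPM, where the unwounded Control sections held 12808 to 16630 CPM and those assigned to PITX1+ 9522 to 33126 CPM. In CPM, all 6 genes were higher near the stroma than far from it in all 3 wounds, with Itgb4 at 8935 and 2017 CPM in the Control wound.

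**Figure D5:**
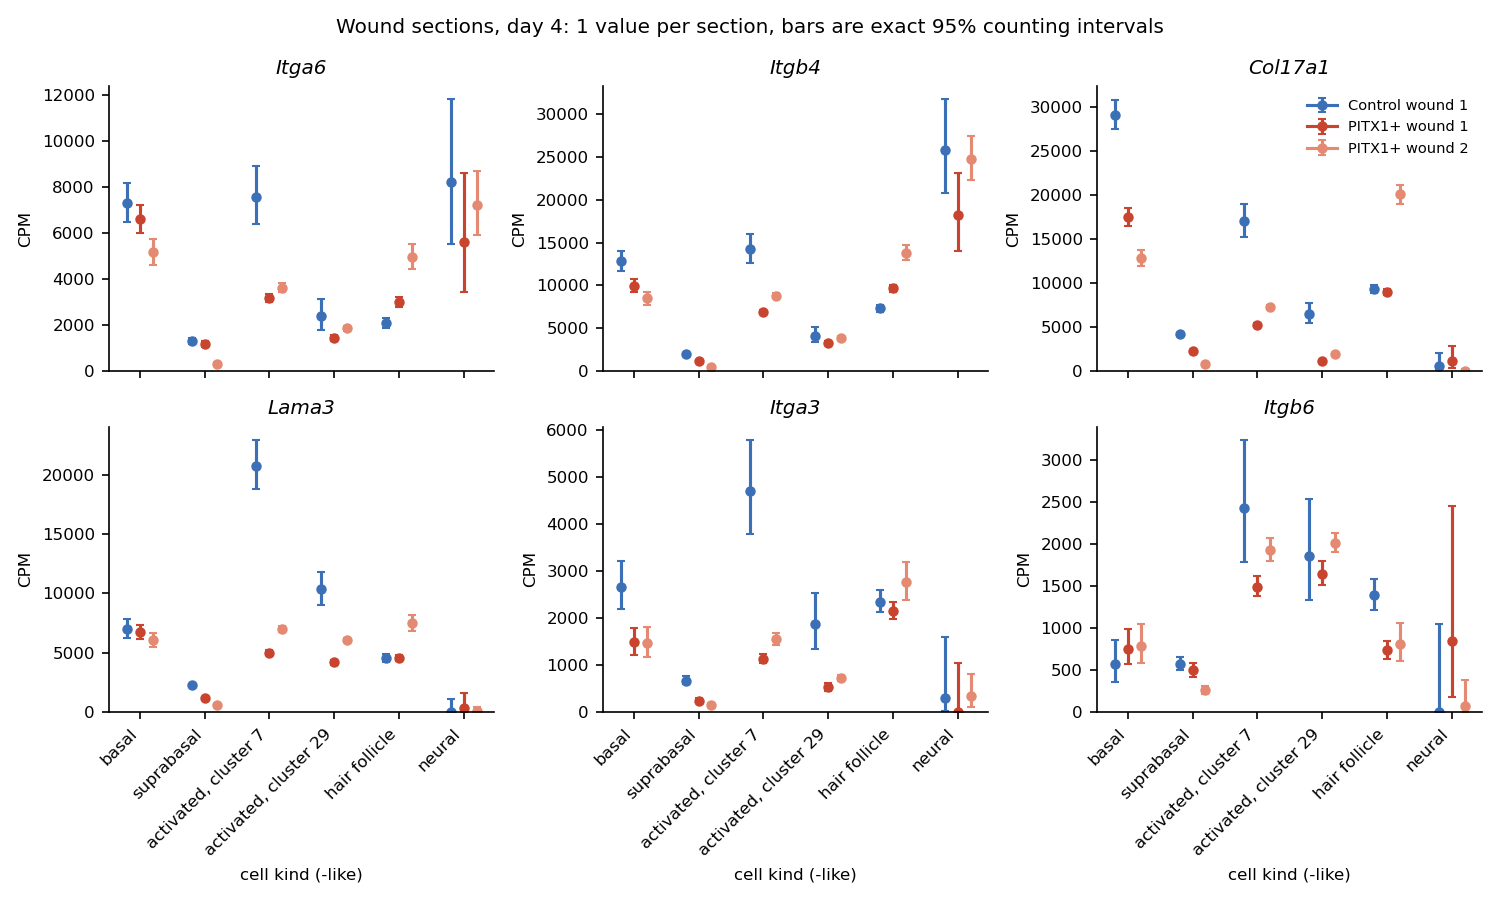
Level of each gene, in CPM on a linear axis, in the Control wound and both PITX1+ wounds by kind of cell, with bars for exact Poisson 95% intervals of counting error. In cluster 7 the Control wound lies above both PITX1+ wounds, as for Lama3 (20771 against 4980 and 6962 CPM), except that for Itgb6 the intervals of the Control wound and PITX1+ wound 2 overlap.

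Of 10 further adhesion and basement membrane genes on the panel (Itgb1, Itga1, Itga5, Itgb3, Itgb5, Lama5, Lamc1, Col7a1, Fn1 and Tnc), 3 were higher and 0 lower in keratinocyte-like cells of all kinds of sections assigned to PITX1+. These were Lama5 (1.39), the laminin α5 chain of mature basement membrane, Tnc (1.08), a matrix glycoprotein, and Itgb1 (0.87), the β chain that pairs with the α3 chain. Of all genes 32% passed there. Within the male slide Lama5 went from 2374 to 8229 CPM, Tnc from 597 to 1739 CPM and Itgb1 from 2619 to 6976 CPM. In hair follicle-like cells 5 were higher, where 38.1% of all genes passed, with Lamc1 at 1.62 (303 to 867 CPM on the male slide), Lama5 at 1.36 (4582 to 10151 CPM), Itgb1 at 1.02 (3368 to 7449 CPM), Itgb5 at 0.99 (3459 to 7069 CPM) and Tnc at 0.76 (1274 to 2419 CPM). In buccal basal cells 2 were higher, Lama5 (1.58) and Itgb1 (0.95), and 3 lower, among them Col7a1 (-1.07), the anchoring fibril collagen. There 68.2% of all genes passed, 32.5% higher and 35.7% lower. In buccal keratinocyte-like cells of all kinds 1 was higher and 5 lower, where 30.9% of all genes were higher and 37.8% lower. In buccal suprabasal cells 1 was higher and 8 lower, against 33.2% and 40.9% of all genes.

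The panel genes whose level over the 12 kinds ran most like each member were found by Spearman's rho, a description over kinds that share sections. For Itga6 and Itgb4 it was each other (0.853), followed by Efnb1 (0.762) and Sox2 (0.832). For Col17a1 they were Krt5 (0.986) and Dsc3 (0.951), for Lama3 Barx2 (0.944) and Dsg2 (0.923), for Itga3 Lama5 (0.909) and Dnajb1 (0.804), and for Itgb6 Palld (0.923) and Cebpg (0.874). Krt5, Dsc3, Sox2, Barx2 and Palld were also among the markers from which the kinds were named, so these matches are not independent of the naming.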

How the data were processed

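The submitters' files held, for each Xenium slide, decoded transcripts with a quality score and a cell, and the position of each cell. The deposited values were raw counts, not normalized, and the score was deposited per transcript. Segmentation and decoding versions were not given in the sources used here. Transcripts of quality 20 or more were counted per cell. Cells were chained into sections at 100 µm (wounded slide 200 µm), keeping sections of at least 2000 cells. Cells with at least 10 transcripts were clustered (k-means, 45 clusters, 40 principal components, scikit-learn 1.9.0) without 17 genes (the 6 members, 10 other adhesion genes and Pitx1), and clusters were named by markers raised 1.5-fold or more; the naming rule was set after the clusters were seen. Doublets were not removed. Counts were summed per section and class with at least 20 cells, and levels were given as CPM computed from the deposited counts. Tests were fitted over all panel genes in edgeR 4.0.16 (quasi-likelihood, TMM, filterByExpr, slide as covariate within skin), with Benjamini-Hochberg adjustment at 0.05; the procedure was tested on simulated data. DESeq2 1.42.0 was an alternative. Distance tests used exact sign-flip permutations on log2(CPM + 10). Boundary tables were not used. Genes named in the text were the 6 members, the listed adhesion genes past the threshold, Pitx1, and the 2 genes most like each member. Members and lists were chosen with earlier results of these data known.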

Additional observations from a re-analysis of the deposited data

Results flagged for a closer look

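Of 78 groups of 4 to 7 sections examined, 10 held a section far from the others, where chance gives about 1 in 20 for independent groups. These groups share sections, and all kinds of keratinocyte-like cells include the basal and suprabasal ones. They are thus not independent, and the count cannot be set against that rate. Buccal section 6 accounted for 7 of the 10, with more Itga3 and Itgb6 in its epithelium than the other buccal sections. Its Itga3 level was 1746 CPM in keratinocyte-like cells of all kinds (others 540 to 971) and 5942 CPM in basal ones (others 3173 to 3958). Its Itgb6 level was 561 CPM in all kinds (others 164 to 296), 971 CPM in basal cells (others 392 to 583) and 313 CPM in suprabasal cells (others 120 to 176, on 46 transcripts). Itga6 in its suprabasal cells was 579 CPM (others 218 to 317), and Col17a1 in its fibroblast-like cells was 1491 CPM (others 193 to 743), on 26 transcripts. This section also held 2588 salivary-like cells.

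Among fibroblast-like cells, buccal section 3 had 2123 CPM of Itga6 (others 662 to 1016), buccal section 5 had 243 CPM of Itga3 (others 124 to 172, on 15 transcripts), and PITX1+ section 1 had 529 CPM of Itgb6 (others 252 to 286).

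In neural-like cells Itgb4 moved in opposite directions on the slides, with an interaction of 1.56 on the log2 scale (adjusted p = 0.0649 in edgeR). Itgb6 in neural-like cells also lay on opposite sides on the slides, with 410 CPM as its highest value among these sections, and the difference was not tested. There were 42 such pairs of gene and kind of cell compared between the slides.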

How the results depend on the processing

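Of 1600 values of single genes recomputed under other settings, 1440 kept their direction and side of the threshold or stayed uncalled (101 of the uncalled changed sign), 73 lost the call, 78 gained one and 9 reversed. With cells as the offset, reversals were Itgb4 0.25, Lama3 0.22 (PITX1+, all kinds, median of all genes 0.81), Col17a1 0.34 (buccal, all kinds, median 0.55), Itga6 1.29 and Itgb4 0.64 (PITX1+, hair follicle, median 1.06), so that of these Itga6 alone stood above the median. With library size they were Itga6 -0.66, Itgb4 -0.47 and Itgb6 -1.20 (buccal, all kinds) and Itgb6 -0.97 (buccal, suprabasal), the median of all genes standing at -1.61 and -2.25 there. Causes were not tested.

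Counts of the 6 genes called between sections assigned to PITX1+ and Control moved as follows. Here and in the next paragraph the share of all genes called under each setting is not given. The counts therefore show only how far calls move, and are not read as results about the members. For all kinds the count went from 3 to 1 with library size, cells as the offset, no slide covariate or any quality (1 to 3 leaving out sections). For basal cells it went from 0 to 1 with library size, DESeq2, nuclear transcripts, 30 or 60 clusters (0 to 2). For suprabasal cells it went from 0 to 2 with library size and 3 with DESeq2 (0 to 3), and for hair follicle cells from 2 to 1 with no covariate, nuclear transcripts or 1 cluster alone, the last chosen after seeing the data (1 to 2). It went from 0 to 1 with DESeq2 in vascular and fibroblast cells (0 to 1 for fibroblasts leaving out sections) and with any quality in neural cells.

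For buccal against Control, hair follicle cells went from 0 to 2 (library size, DESeq2, nuclear, any quality), 4 (cells as the offset) and 1 (at least 20 transcripts), with 0 to 3 leaving out sections. Vascular cells went from 1 to 3 (cells as the offset, DESeq2, no filter) and 2 (nuclear, 60 clusters), with 0 to 3. Neural cells went from 1 to 2 (library size, DESeq2, no filter, any quality, 60 clusters) and 0 (nuclear, at least 20 transcripts), with 1 to 2. Fibroblasts went from 1 to 2 with cells as the offset or any quality. Leaving out sections gave 0 to 4 for all kinds, 3 to 5 for basal and 5 to 6 for suprabasal cells.

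In the distance comparisons all 6 genes stayed past the threshold under the other distances and pseudocounts and with each section left out, except Itga3 in fibroblast-like cells at smaller distances (0.55). These comparisons were not repeated per cell. The fit of hair follicle cells with 30 clusters could not be run. No paired analysis was possible because section numbers were given here by position and do not mark shared mice. The 3 Control sections and their shallow cells limit precision.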
